A study of Saccharomyces cerevisiae with 10 samples.

Results

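Ribosome footprints of [PSI+] budding yeast grown in synthetic medium (YNB) were compared with footprints of [PSI+] yeast grown in rich medium (YPD), in both cases without the SUP35-Cter construct. The genes compared were the 6109 protein-coding systematic names listed for both media, out of 6190 features listed for YNB and 6608 listed for YPD. The libraries compared were 4 of the 10 in the study. The YNB cells grew in YNB with CSM-U, a supplement of amino acids and bases that lacks uracil, and 2% glucose. Their 2 libraries are represented here by a single value per gene, the authors' mean, so no spread among YNB cultures is known and no test between the media could be made. The YPD cells are represented by 2 libraries with their own counts. A second YNB group, [PSI+] cells overexpressing SUP35-Cter (the C-terminal region of the Sup35 protein), is likewise given as the authors' mean of 2 libraries, and a second YPD group, [psi-] cells, as 2 libraries. All groups were of strain background 74D694, were grown at 30 °C to an OD600 of 0.6 to 0.8, received cycloheximide, a drug that arrests elongating ribosomes, and were made into libraries with the same directional small RNA kit. The labels do not say whether the YNB and YPD cells were the same clone, nor whether the [PSI+] cells in YNB carried an empty plasmid.

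A footprint is the piece of mRNA that a ribosome shields from nuclease, and the number of footprints on a gene follows both how much of its mRNA a cell has and how densely ribosomes load it, which footprints alone cannot separate. Rich medium supplies peptides, bases, vitamins and metals from yeast extract and peptone, whereas YNB is a defined mix of salts, vitamins, ammonium and sugar. In budding yeast, the signalling that favours growth on rich nutrients is known for raising ribosomal protein and ribosome biogenesis genes and for holding back the stress activators Msn2 and Msn4, while dedicated regulators read single nutrients, such as Zap1 for zinc. [PSI+] is the aggregated, heritable form of the translation termination factor Sup35, and [psi-] cells lack it.

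Levels are in CPM, counts scaled to a total of 1000000 over the 6109 shared genes, and ratios are log2 of YNB over the mean of the YPD libraries with 1 CPM added to each. A gene was called higher in YNB when it stood at least 2-fold above each of the 2 YPD libraries, and lower when it stood at least 2-fold below each. Of 4801 genes that averaged 10 CPM or more over both media, 1068 (22.2%) were higher in YNB and 783 (16.3%) were lower, and the median log2 ratio of all 4801 was 0.06, with quartiles at -0.77 and 1.02. At least 4-fold, 456 genes were higher and 240 lower, and at least 16-fold, 103 were higher and 18 lower. At least 64-fold, 28 genes were higher and 3 were lower. The filter averages both media, so a gene low in either medium could pass through its level in the other alone. A call for such a gene then followed largely from the filter. The medium, the mapping tools, the genome build and the experiment differ together between these tables, so their contributions to any value below cannot be told apart. The sources used here do not give how reads that match several genes were counted, so levels of near-identical copies are uncertain.

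The [PSI+] YPD libraries held 2497170 and 3257673 reads and the [psi-] ones 3461402 and 3579039, so that 3 reads, the limit that a count of 0 allows, are 1.22 and 0.93 CPM in the [PSI+] libraries. The YNB depths are not listed; the 433 YNB values of 5 or less, before scaling, all lay on sums of steps of 0.326 and 1.39, the worth of 1 read in each library behind the mean, by which 10 CPM stands for about 435 and 102 reads in them. Contrasts within a medium give a scale for the number of genes called. A 2-fold difference in either direction was found for 4.75% of the 4801 genes between the [PSI+] YPD libraries 1 and 2, and for 0.229% between the [psi-] YPD libraries. Between the YNB means with and without SUP35-Cter it was found for 3.85%, and between [PSI+] and [psi-] YPD cells, requiring both libraries of one strain to lie beyond both of the other, for 9.52%. Between the media it was found for 38.6%. Whether the 2 [psi-] libraries differ by more than read counting alone gives was not tested. How far their share stands for the spread between separate cultures is therefore not known. When both YNB means had to lie at least 2-fold beyond all 4 YPD libraries of either strain, 713 genes (14.9%) were higher in YNB and 467 (9.73%) were lower. The plot of levels in both media shows where the gene groups described next lie.

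**Figure D1:**
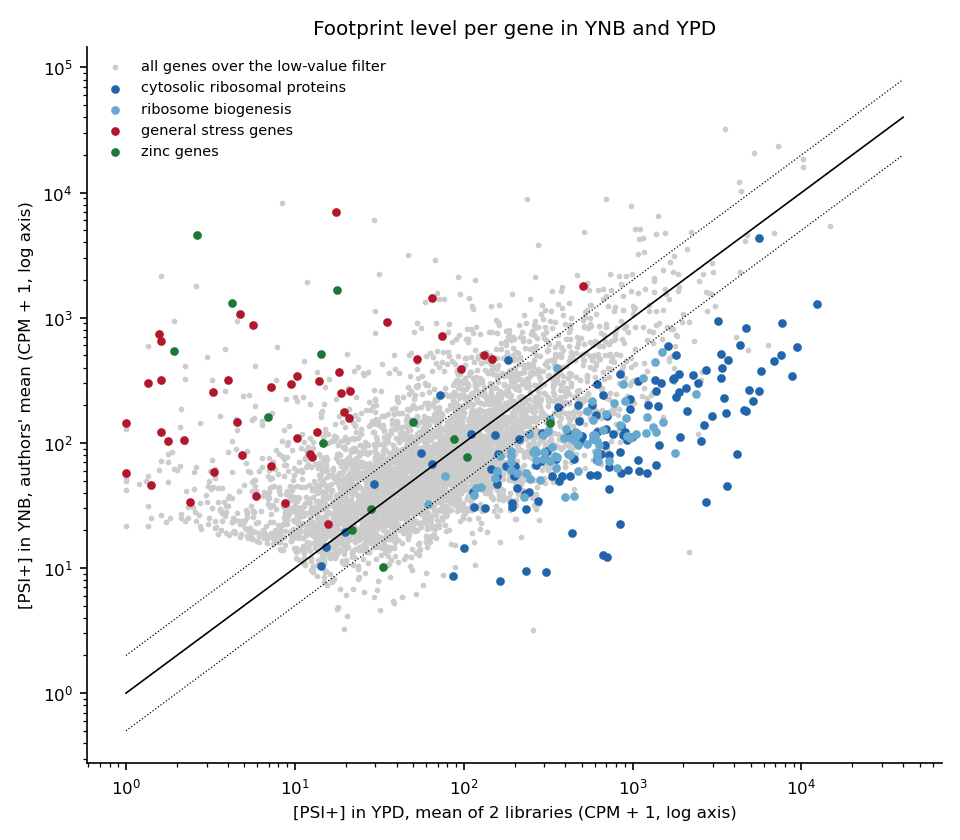
Footprint level of each gene in [PSI+] cells in YNB (authors' mean, vertical) against the mean of the 2 [PSI+] YPD libraries (horizontal), in CPM plus 1 on log axes, for the 4801 genes over the low-value filter. The solid line marks equal levels and the dotted lines 2-fold differences. Of 136 cytosolic ribosomal protein genes, 111 were called lower, and 43 of 44 general stress genes and 8 of 14 zinc genes were called higher. Some of the stress and zinc genes passed the filter through their YNB level alone.

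The largest block of genes lower in YNB was the ribosome itself. Of 136 cytosolic ribosomal protein genes over the filter, 111 were lower in YNB and 1 was higher (all genes, 16.3% and 22.2%), with a median log2 ratio of -2.69. Together they took 2.86% of footprints in YNB and 2.80% in YNB with SUP35-Cter, against 23.8% and 19.5% in the [PSI+] YPD libraries and 22.7% and 22.8% in the [psi-] YPD libraries. Most yeast ribosomal protein genes come as near-identical pairs whose reads can be split arbitrarily, so the 19 single-copy genes are the firmer measure. Of these, 18 were lower, with a median of -3.08.

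RPS3, a protein of the mRNA entry site of the small subunit, had 448 CPM in YNB, against 6174 and 7512 CPM in [PSI+] YPD (log2 -3.93). RPS31, a small subunit protein made as a fusion with ubiquitin, whose sequence other genes share, had 339 CPM in YNB, against 9905 and 7678 CPM in [PSI+] YPD (log2 -4.69). RPL38, of the large subunit, had 178 CPM in YNB, against 2513 and 6933 CPM in [PSI+] YPD (log2 -4.72). In all 3 genes the YNB mean lay several-fold below even the lower of the YPD libraries, and the [psi-] YPD libraries stood on the YPD side: RPS3 had 3899 and 4017 CPM there. RPL10, the large subunit protein that joins last and completes the peptidyl transferase centre, was the exception among the single-copy genes, with 4314 CPM in YNB, against 5898 and 5345 CPM in [PSI+] YPD (log2 -0.38). Among the paired genes the lowest ratios were those of RPS8B, with 32.9 CPM in YNB, against 2555 and 2893 CPM in [PSI+] YPD (log2 -6.33), and RPL40B, with 44.6 CPM in YNB, against 1939 and 5268 CPM in [PSI+] YPD (log2 -6.31). RPL7B, with 11.2 CPM in YNB, against 814 and 592 CPM in [PSI+] YPD, RPL8B, with 80.1 CPM in YNB, against 5477 and 2831 CPM in [PSI+] YPD, RPL22B, with 8.23 CPM in YNB, against 255 and 359.5 CPM in [PSI+] YPD, and RPS9B, with 181 CPM in YNB, against 5018 and 4142 CPM in [PSI+] YPD, were also among the 12 lowest ratios. Summed over both copies, RPS8A and RPS8B had 91.4 CPM in YNB, against 3807 and 3829 CPM in [PSI+] YPD (log2 -5.37), so the sum of the pair was lower as well. RPL41B and RPS26B had 1252 and 76.0 CPM and 1531 and 155 CPM in the 2 YPD libraries, and with libraries so far apart their YNB means can be placed below both but not scaled. The 1 higher gene was RPL4A, with 240.1 CPM in YNB, against 69.3 and 73.5 CPM in [PSI+] YPD (log2 1.73); with its copy RPL4B the sum was 259 CPM in YNB, against 85.6 and 95.03 CPM in [PSI+] YPD (log2 1.51).

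The machinery that builds ribosomes was lower as well. Of 82 ribosome biogenesis genes over the filter, 77 were lower and 0 were higher in YNB (all genes, 16.3% and 22.2%), with a median of -2.05, and their share of footprints was 0.956% in YNB, against 4.65% and 4.63% in [PSI+] YPD. NUG1, a GTPase needed for export of the 60S subunit, had 122 CPM in YNB, against 1428 and 1332 CPM in [PSI+] YPD (log2 -3.49). NOP2, an rRNA methyltransferase of the nucleolus, had 147 CPM in YNB, against 1313 and 1732 CPM in [PSI+] YPD (log2 -3.36). DBP2, a DEAD-box RNA helicase, had 81.9 CPM in YNB, against 2059.5 and 1502 CPM in [PSI+] YPD (log2 -4.43). The YNB mean of each lay below every YPD library of either strain. For DBP2 the nearest were the [psi-] libraries, at 679.8 and 678 CPM. Subunits of RNA polymerases I and III, which transcribe rRNA and tRNA, had a median of -0.92, with 10 of 21 lower and 0 higher. RPC19, a subunit of both enzymes, had 319.5 CPM in YNB, against 1809 and 3265 CPM in [PSI+] YPD (log2 -2.99), and RPA190, the largest subunit of polymerase I, had 208 CPM in YNB, against 889 and 1161 CPM in [PSI+] YPD (log2 -2.29). Mitochondrial ribosomal proteins did not differ as a block: 9 of 66 were higher, 10 were lower (all genes, 22.2% and 16.3%), and their median lay -0.06 from that of all genes.

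Translation factors were lower by less. Of 27 initiation factors, 15 were lower, 0 were higher (all genes, 16.3% and 22.2%) and the median was -1.17. TIF35, the g subunit of eIF3, had 219 CPM in YNB, against 943 and 1486 CPM in [PSI+] YPD (log2 -2.47). FUN12, the GTPase eIF5B that joins the subunits, had 649.5 CPM in YNB, against 2194 and 2435 CPM in [PSI+] YPD (log2 -1.83). Elongation factors were mixed, with 5 of 10 lower and 1 higher. YEF3, the fungal elongation factor eEF3, had 5446 CPM in YNB, against 16254 and 13081 CPM in [PSI+] YPD (log2 -1.43), whereas CAM1, a subunit of the eEF1B exchange factor, had 918 CPM in YNB, against 321 and 375 CPM in [PSI+] YPD (log2 1.40). STM1, a protein that binds ribosomes and preserves them when growth stops, had 608 CPM in YNB, against 6041 and 6627 CPM in [PSI+] YPD (log2 -3.38), and 6498 and 6299 CPM in [psi-] YPD. It was called lower, as most of the ribosomal proteins were. Of 21 aminoacyl-tRNA synthetases, 8 were lower and 0 higher. GRS1, the glycyl-tRNA synthetase, had 308 CPM in YNB, against 2113 and 1423 CPM in [PSI+] YPD (log2 -2.52), but 627 and 618 CPM in [psi-] YPD.

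**Figure D2:**
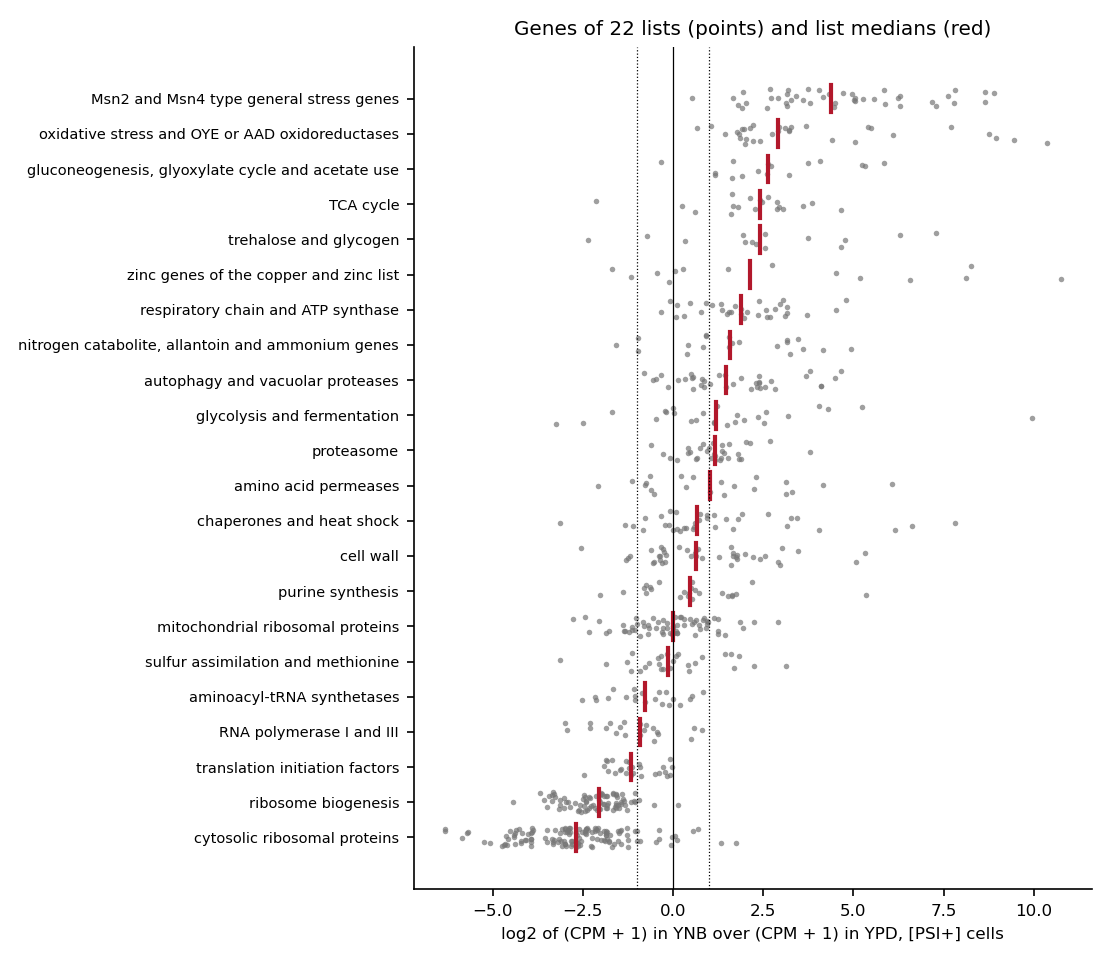
Log2 ratio of YNB over YPD in [PSI+] cells for every gene over the low-value filter in 22 gene lists (grey points), with the list median (red bar) and dotted lines at 2-fold. Medians run down the page, with general stress genes at 4.39 at the top and cytosolic ribosomal proteins at -2.69 at the bottom.

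General stress genes were the list with the most genes higher in YNB, and the difference was large against [PSI+] YPD and small against [psi-] YPD. Of 47 shared genes of the Msn2 and Msn4 type, 44 passed the filter. Of these, 43 were higher in YNB and 0 were lower than in [PSI+] YPD (all genes, 22.2% and 16.3%), with a median of 4.39. Some, such as DDR2 and HSP26, were near 0 in [PSI+] YPD and passed through their YNB level alone, so their calls were nearly fixed. The list was chosen with earlier results of these data known. Against the [psi-] YPD libraries the median of the 44 genes was 0.34, and 16 were higher and 4 lower (all genes, 23.8% and 16.3%). Both contrasts use the same YNB mean, so they are not independent. The list took 2.21% of footprints in YNB and 1.77% in YNB with SUP35-Cter, against 0.123% and 0.150% in [PSI+] YPD and 1.26% and 1.26% in [psi-] YPD. The YNB and [psi-] YPD shares were thus closer to each other than either was to the [PSI+] YPD libraries.

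HSP12, a small membrane-associated stress protein, had 7011 CPM in YNB, against 12.6 and 20.3 CPM in [PSI+] YPD and 1686 and 1659 CPM in [psi-] YPD. HSP26, a small heat shock chaperone, had 1063 CPM in YNB, against 5.27 and 2.18 CPM in [PSI+] YPD and 848 and 799 CPM in [psi-] YPD. DDR2, a short stress-induced protein, had 651 CPM in YNB, against 0 and 1.25 CPM in [PSI+] YPD and 61.8 and 60.9 CPM in [psi-] YPD. The [PSI+] YPD libraries held 96, 20 and 4 reads on these genes in all, so the lower end of each ratio rests on few reads. For YMR090W, listed under its systematic name, 3 reads in both YPD libraries together gave a ratio of 1396 (95% counting interval 478 to 6768). For ALD3, a cytosolic aldehyde dehydrogenase, no read was counted in [PSI+] YPD, and the YNB mean of 56.8 CPM was at least 107-fold above the level that 3 reads over both libraries would give. In [psi-] YPD, ALD3 stood at 104 and 106 CPM, above its YNB level.

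Genes of trehalose and glycogen, the reserve carbohydrates of yeast, showed the same arrangement. In YNB 11 of 14 were higher and 1 was lower than in [PSI+] YPD (all genes, 22.2% and 16.3%), with a median of 2.42, against a median of 0.08 over [psi-] YPD. PGM2 and TSL1 passed the filter through their YNB level alone. TPS1, the trehalose-6-phosphate synthase, had 1644 CPM in YNB, against 351 and 309.7 CPM in [PSI+] YPD and 1686 and 1673 CPM in [psi-] YPD. GSY2, the main glycogen synthase, had 249 CPM in YNB, against 17.0 and 18.4 CPM in [PSI+] YPD and 263 and 241 CPM in [psi-] YPD. PGM2, phosphoglucomutase, had 254 CPM in YNB, against 3.65 and 0.935 CPM in [PSI+] YPD and 261 and 258 CPM in [psi-] YPD. In these 3 genes the YNB mean and the [psi-] YPD libraries differed by little and the [PSI+] YPD libraries lay far below both. TSL1, a regulatory subunit of trehalose synthase, was also above the [psi-] libraries, with 879 CPM in YNB, against 3.65 and 5.61 CPM in [PSI+] YPD and 254 and 268 CPM in [psi-] YPD. GLG1, a glycogenin that primes glycogen chains, was the lower gene, with 35.1 CPM in YNB, against 223 and 145 CPM in [PSI+] YPD (log2 -2.36).

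Oxidoreductases and oxidative stress genes were higher against both YPD strains. Of 38 shared genes, 32 passed the filter. Of these, 30 were higher and 0 were lower than in [PSI+] YPD (all genes, 22.2% and 16.3%), with a median of 2.92. Against [psi-] YPD, 20 were higher and 1 was lower (all genes, 23.8% and 16.3%), with a median of 1.49. OYE3, AAD6, GTT2 and FLR1 passed through their YNB level alone, so their calls against [PSI+] YPD were nearly fixed. OYE3, an old yellow enzyme (an NADPH oxidoreductase), had 2144 CPM in YNB, against 0 and 1.25 CPM in [PSI+] YPD and 567 and 527 CPM in [psi-] YPD. AAD6, of a family of near copies resembling aryl-alcohol dehydrogenases, had 1807 CPM in YNB, against 1.62 and 1.56 CPM in [PSI+] YPD and 132 and 140.3 CPM in [psi-] YPD. GTT2, a glutathione transferase, had 948 CPM in YNB, against 0 and 1.87 CPM in [PSI+] YPD and 133 and 132 CPM in [psi-] YPD. The order of the 3 groups was the same in each of these genes, with YNB highest, [psi-] YPD between and [PSI+] YPD near 0. FLR1, a plasma membrane multidrug transporter, had 591 CPM in YNB, against 2 reads in both [PSI+] YPD libraries, a ratio of 1676 (95% counting interval 464 to 13841), and 14.5 and 14.03 CPM in [psi-] YPD. GRE2, a methylglyoxal reductase, had 3196 CPM in YNB, against 39.3 and 52.0 CPM in [PSI+] YPD (log2 6.10). The whole list took 4.78% of footprints in YNB, against 0.637% and 0.814% in [PSI+] YPD and 1.61% and 1.62% in [psi-] YPD.

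**Figure D3:**
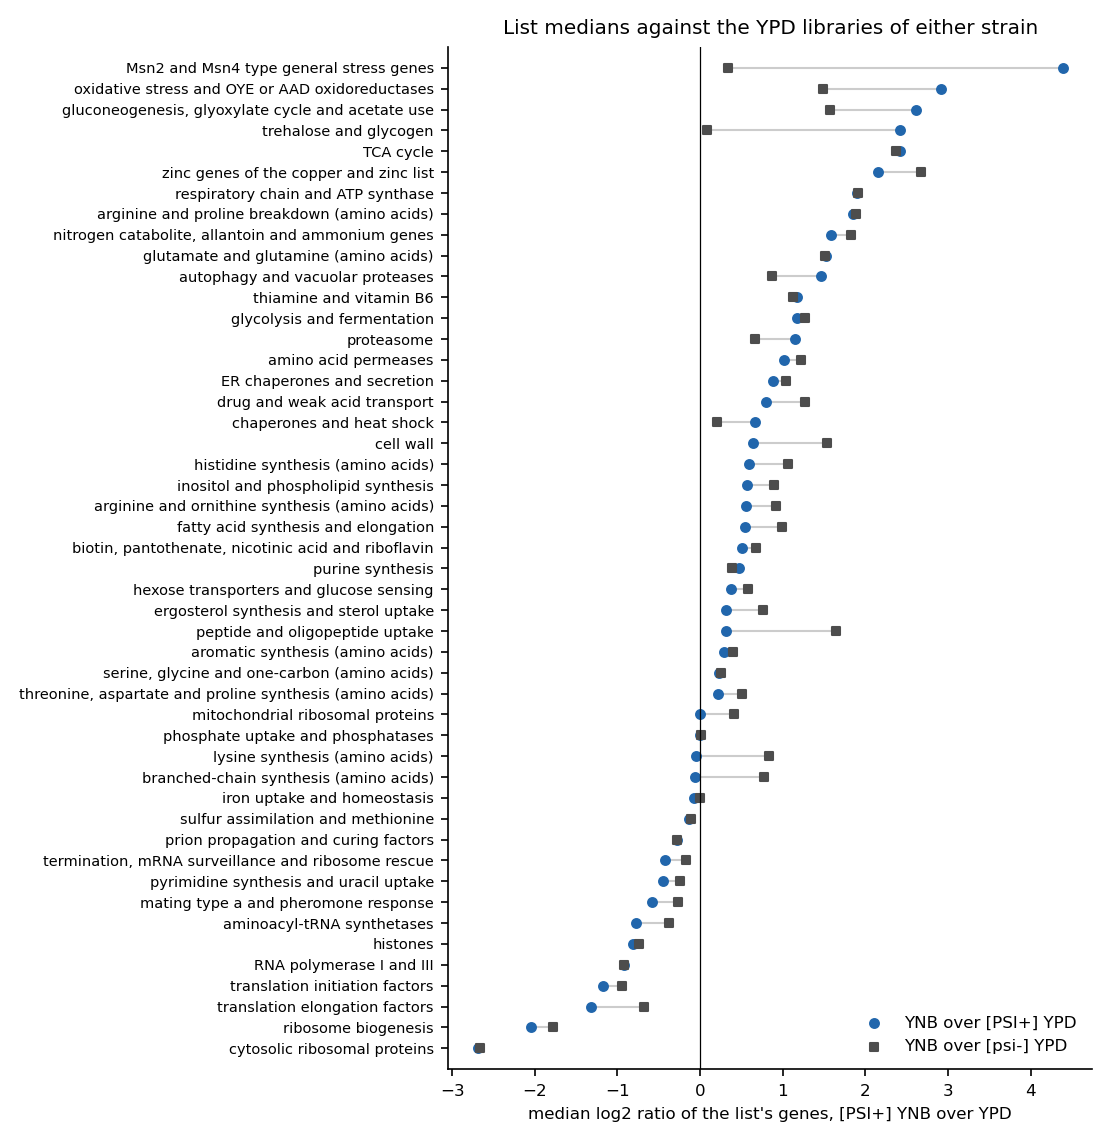
Median log2 ratio of [PSI+] YNB over [PSI+] YPD (circles) and over [psi-] YPD (squares) for the gene lists, ordered by the circles. The circles and squares lie close for cytosolic ribosomal proteins (-2.69 and -2.66) and the TCA cycle (2.42 and 2.37), and far apart for general stress genes (4.39 and 0.34) and for trehalose and glycogen (2.42 and 0.08).

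Mitochondrial carbon metabolism was higher in YNB, by about as much against either YPD strain. Of 19 TCA cycle genes, 16 were higher and 1 was lower than in [PSI+] YPD (all genes, 22.2% and 16.3%), with a median of 2.42 over [PSI+] YPD and 2.37 over [psi-] YPD. IDH2, a subunit of the NAD-dependent isocitrate dehydrogenase, had 754 CPM in YNB, against 28.8 and 28.7 CPM in [PSI+] YPD (log2 4.67). CIT1, the mitochondrial citrate synthase, had 363 CPM in YNB, against 26.0 and 22.4 CPM in [PSI+] YPD (log2 3.85). FUM1, fumarase, had 526 CPM in YNB, against 70.6 and 53.6 CPM in [PSI+] YPD (log2 3.06). All 4 YPD libraries lay below the YNB mean in these genes, the [psi-] ones of CIT1 at 87.0 and 82.8 CPM. Of 33 respiratory chain and ATP synthase genes, 25 were higher and 0 were lower, with a median of 1.90. CYB2, the lactate dehydrogenase of the intermembrane space, had 126 CPM in YNB, against 5.27 and 1.87 CPM in [PSI+] YPD (log2 4.79), and ATP4, a stator subunit of the ATP synthase, had 1242 CPM in YNB, against 152 and 136 CPM in [PSI+] YPD (log2 3.10).

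Of 23 genes for making glucose and using acetate, 16 passed the filter, and of these 13 were higher and 0 lower (all genes, 22.2% and 16.3%), with a median of 2.62 over [PSI+] YPD and 1.57 over [psi-] YPD. The enzymes specific to making glucose were under the filter: PCK1, phosphoenolpyruvate carboxykinase, had 10.1 CPM in YNB, against 0 and 0.935 CPM in [PSI+] YPD, and FBP1, fructose-1,6-bisphosphatase, had 0.952 CPM in YNB, against 1.22 and 0 CPM in [PSI+] YPD. Most of the genes that passed averaged less than the 10 CPM minimum in [PSI+] YPD and so passed through their YNB level, and the summed share of the list was small, at 0.321% of footprints in YNB, against 0.143% and 0.132% in [PSI+] YPD. YAT1, a carnitine acetyltransferase, had 376 CPM in YNB, against 15.0 and 27.7 CPM in [PSI+] YPD (log2 4.07). ACH1, which moves CoA between acetate and succinate in mitochondria, had 274 CPM in YNB, against 19.5 and 19.6 CPM in [PSI+] YPD (log2 3.74). For ACS1, an acetyl-CoA synthetase, 2 reads in [PSI+] YPD gave a ratio of 150.01 (95% counting interval 41.5 to 1239) to its YNB mean of 52.9 CPM.

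Glycolysis took more YNB footprints than any other list examined, and its isoenzymes differed unequally between media. The list took 17.4% of footprints in YNB and 15.7% in YNB with SUP35-Cter, against 6.501% and 5.55% in [PSI+] YPD and 5.75% and 5.74% in [psi-] YPD. Of 26 genes over the filter, 13 were higher, 3 were lower (all genes, 22.2% and 16.3%) and 10 were neither. PGK1, phosphoglycerate kinase, had 32457 CPM in YNB, against 3726 and 3337 CPM in [PSI+] YPD (log2 3.20). GPM1, phosphoglycerate mutase, had 20546 CPM in YNB, against 5656 and 4881 CPM in [PSI+] YPD (log2 1.96). CDC19, the main pyruvate kinase, had 23572 CPM in YNB, against 7685 and 6753 CPM in [PSI+] YPD (log2 1.71). All 3 enzymes of the later steps stood at least 2-fold above all 4 YPD libraries. FBA1, the aldolase, reached 18440.4 CPM in YNB, against 10591 and 9938 CPM in [PSI+] YPD (log2 0.85), and both phosphofructokinase subunits were near equality, PFK1 with 1559.9 CPM in YNB, against 1313 and 1819.5 CPM in [PSI+] YPD (log2 -0.01) and PFK2 with 1420.1 CPM in YNB, against 1643 and 1638 CPM in [PSI+] YPD (log2 -0.21).

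Among the glyceraldehyde-3-phosphate dehydrogenases, TDH1 had 8318 CPM in YNB, against 6.08 and 8.72 CPM in [PSI+] YPD and 315 and 330.3 CPM in [psi-] YPD. TDH3, the major isoenzyme, had 4067 CPM in YNB, against 4199 and 5104 CPM in [PSI+] YPD (log2 -0.19). The genes are near copies, and the sum of TDH1, TDH2 and TDH3 was 13799 CPM in YNB, against 4479 and 5333 CPM in [PSI+] YPD (log2 1.49). TDH1 was thus the member that differed most, while the major isoenzyme did not pass the 2-fold rule. ENO1, an enolase, had 8921 CPM in YNB, against 229 and 245 CPM in [PSI+] YPD, and its near copy ENO2 had 12082 CPM in YNB, against 6067 and 2468 CPM in [PSI+] YPD. Their sum had 21004 CPM in YNB, against 6296 and 2713 CPM in [PSI+] YPD (log2 2.22). GPD1, the glycerol-3-phosphate dehydrogenase of glycerol synthesis, had 1552 CPM in YNB, against 86.4 and 101 CPM in [PSI+] YPD (log2 4.04), and GPP2, the phosphatase of the next step, had 1403 CPM in YNB, against 49.5 and 91.6 CPM in [PSI+] YPD (log2 4.29).

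Of the alcohol dehydrogenases, ADH1 and ADH3 were lower in YNB and ADH4 was higher, and a link of these differences to zinc was not tested. ADH1, the main fermentative alcohol dehydrogenase and a zinc enzyme, had 160.0 CPM in YNB and 175 CPM in YNB with SUP35-Cter, against 1625 and 1402 CPM in [PSI+] YPD and 1497 and 1451 CPM in [psi-] YPD (log2 -3.23). ADH3, the mitochondrial form, had 51.5 CPM in YNB and 71.6 CPM in YNB with SUP35-Cter, against 309.8 and 284 CPM in [PSI+] YPD and 456 and 456 CPM in [psi-] YPD (log2 -2.50). ADH4, an alcohol dehydrogenase of a separate family and a known target of the zinc regulator Zap1, had 4561 CPM in YNB and 5572 CPM in YNB with SUP35-Cter, against 2.03 and 1.25 CPM in [PSI+] YPD and 0.290 and 1.12 CPM in [psi-] YPD (log2 10.76). In each gene all 4 YPD libraries stood together and both YNB means stood apart, ADH1 and ADH3 below and ADH4 above; the log2 ratios are over [PSI+] YPD. With 1 CPM added, ADH4 had the highest log2 ratio of all genes averaging 50 CPM or more. ADH1 and ADH2 share much sequence, and their sum was 181 CPM in YNB, against 1709.6 and 1458 CPM in [PSI+] YPD (log2 -3.12).

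The zinc list holds genes of zinc uptake, storage and regulation, and others such as ADH4, ZPS1 and VEL1. Of its 14 genes over the filter, 8 were higher and 1, RTC4 (log2 -1.69), was lower (all genes, 22.2% and 16.3%). The median was 2.15 over [PSI+] YPD and 2.67 over [psi-] YPD. ADH4, ZPS1, VEL1 and ZRT3 passed the filter through their YNB level alone, so their calls were nearly fixed. The 14 genes are a subset of a copper and zinc list of 21 genes. Of these 21, 10 were higher and 3 lower, with a median of 0.61. Relative to all genes the median of the zinc genes was 2.09, and 4.66 over the 11 left by a filter at 50 CPM. That filter averages both media, so genes high only in YNB, such as ZRT3 and VEL1, pass it. The larger median is thus over a set chosen partly by the YNB level. ZRT1, the high-affinity zinc transporter of the plasma membrane, had 1668 CPM in YNB, against 21.9 and 11.5 CPM in [PSI+] YPD (log2 6.56). ZAP1, the zinc-responsive activator itself, had 515 CPM in YNB, against 7.30 and 19.3 CPM in [PSI+] YPD (log2 5.17). ZRT3, which releases zinc from the vacuole, had 159 CPM in YNB, against 4.05 and 7.79 CPM in [PSI+] YPD (log2 4.53). Both YNB means of these 3 genes lay above every YPD library, and ZRT2, the low-affinity transporter, had 97.9 CPM in YNB, against 13.0 and 14.3 CPM in [PSI+] YPD (log2 2.75). ZPS1, a cell surface protein resembling metalloproteases, had 1303 CPM in YNB, against 5.27 and 1.25 CPM in [PSI+] YPD (log2 8.26), and VEL1, whose function is not given here, had 537 CPM in YNB, against 0 and 1.87 CPM in [PSI+] YPD (log2 8.12). ZRC1, which moves zinc into the vacuole, had 145 CPM in YNB, against 49.9 and 48.9 CPM in [PSI+] YPD (log2 1.54). The membrane receptors resembling adiponectin receptors were not called, with 106 CPM in YNB, against 88.0 and 85.7 CPM in [PSI+] YPD for IZH2 (log2 0.29) and 75.6 CPM in YNB, against 90.4 and 117 CPM in [PSI+] YPD for IZH4 (log2 -0.45).

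The copper and iron lists held genes in both directions. CTR1 and CTR3, the high-affinity copper transporters, were lower in YNB: CTR1 had 10.9 CPM in YNB, against 47.8 and 38.3 CPM in [PSI+] YPD (log2 -1.89), and CTR3 had 6.26 CPM in YNB, against 57.2 and 56.4 CPM in [PSI+] YPD (log2 -2.99). SOD1, the copper and zinc superoxide dismutase, had 4346 CPM in YNB, against 812 and 1495 CPM in [PSI+] YPD (log2 1.91). Of 20 iron genes, 6 were higher and 3 were lower (all genes, 22.2% and 16.3%), with a median of -0.07. FET3, the multicopper oxidase of iron uptake, had 7.87 CPM in YNB, against 67.7 and 81.6 CPM in [PSI+] YPD (log2 -3.09), and AFT1, the activator of iron uptake genes, had 4.45 CPM in YNB, against 31.2 and 43.3 CPM in [PSI+] YPD (log2 -2.81). CCC1, which stores iron in the vacuole, had 353 CPM in YNB, against 101 and 88.2 CPM in [PSI+] YPD (log2 1.89). MRS4, a mitochondrial iron carrier, had 81.1 CPM in YNB, against 12.6 and 13.1 CPM in [PSI+] YPD (log2 2.57), and SMF3, an iron transporter of the vacuole, had 18.2 CPM in YNB, against 2.43 and 4.36 CPM in [PSI+] YPD (log2 2.12).

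Many nitrogen genes were higher against both YPD strains. Of 28 shared nitrogen catabolite, allantoin and ammonium genes, regulators such as GLN3 included, 20 passed the filter. MEP2, DAL1 and DAL5 were among those that did not. Of the 20, 12 were higher and 0 were lower than in [PSI+] YPD (all genes, 22.2% and 16.3%), and 12 were higher and 0 lower than in [psi-] YPD (all genes, 23.8% and 16.3%). The median was 1.59 over [PSI+] YPD and 1.83 over [psi-] YPD. Of 21 genes on the amino acid permease list, 10 were higher and 2 were lower than in [PSI+] YPD. GAP1, on both lists, and PUT4, on the permease list, passed the filter through their YNB level alone. Their calls against [PSI+] YPD were thus nearly fixed. PUT4, the proline permease, had 260.3 CPM in YNB, against 3.24 and 2.49 CPM in [PSI+] YPD (log2 6.08). AGP1, a broad amino acid permease, had 385 CPM in YNB, against 35.3 and 41.1 CPM in [PSI+] YPD (log2 3.30). UGA1, the GABA transaminase, had 259 CPM in YNB, against 17.4 and 23.1 CPM in [PSI+] YPD (log2 3.61). All 4 YPD libraries lay below the YNB mean of each, with 20.9 and 20.5 CPM for AGP1 in [psi-] YPD. GAP1, the general amino acid permease, had 24.2 CPM in YNB, against 2 reads in both YPD libraries, a ratio of 68.6 (95% counting interval 19.0 to 566). LYP1, the lysine permease, went the other way, with 91.1 CPM in YNB, against 337 and 439 CPM in [PSI+] YPD (log2 -2.08). GDH1, the NADPH-dependent glutamate dehydrogenase that fixes ammonium, had 2177 CPM in YNB, against 507 and 423 CPM in [PSI+] YPD (log2 2.22), and GDH2, the enzyme of the reverse reaction, had 278 CPM in YNB, against 39.3 and 52.3 CPM in [PSI+] YPD (log2 2.57). CHA1, the serine and threonine deaminase that is induced by those amino acids, was among the 12 lowest genes, with 2.19 CPM in YNB, against 253 and 262 CPM in [PSI+] YPD and 101 and 108 CPM in [psi-] YPD (log2 -6.34).

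Amino acid synthesis did not differ as a block against [PSI+] YPD. Of 11 branched-chain genes, 1 was higher and 0 were lower (all genes, 22.2% and 16.3%), with a median of -0.06 over [PSI+] YPD and 0.78 over [psi-] YPD. The higher gene was ILV1, threonine deaminase, with 245 CPM in YNB, against 90.02 and 86.6 CPM in [PSI+] YPD and 18.6 and 23.9 CPM in [psi-] YPD. ILV5, acetohydroxyacid reductoisomerase, had 4727 CPM in YNB, against 6818 and 6942 CPM in [PSI+] YPD and 3671 and 3611 CPM in [psi-] YPD. BAT1, the mitochondrial branched-chain aminotransferase, had 855 CPM in YNB, against 694 and 575 CPM in [PSI+] YPD and 187 and 199 CPM in [psi-] YPD. In these 3 genes the [psi-] YPD libraries were lower than the [PSI+] YPD libraries, so the ratio of YNB to YPD depended on the strain taken. Of 9 arginine genes 3 were higher and 0 were lower, among them ARG1, argininosuccinate synthetase, with 3339 CPM in YNB, against 1043 and 1292 CPM in [PSI+] YPD (log2 1.52). Of 6 histidine genes 2 were higher, 1 was lower and 3 were neither. HIS5, the histidinol-phosphate aminotransferase, had 632 CPM in YNB, against 165 and 166 CPM in [PSI+] YPD (log2 1.93), and HIS6 was the lower gene (log2 -1.28). In lysine synthesis 1 of 9 genes was higher and 2 were lower (all genes, 22.2% and 16.3%). LYS9, saccharopine dehydrogenase, had 229 CPM in YNB, against 898 and 1541 CPM in [PSI+] YPD (log2 -2.41). Of 28 sulfur genes 6 were higher and 5 lower, shares near those of all genes (22.2% and 16.3%). MUP1, the methionine permease, had 751 CPM in YNB, against 148 and 165 CPM in [PSI+] YPD (log2 2.26), and MET14, adenylylsulfate kinase, had 92.1 CPM in YNB, against 283 and 394 CPM in [PSI+] YPD (log2 -1.87).

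In nucleotide synthesis, of 24 purine genes, 7 were higher and 2 were lower (all genes, 22.2% and 16.3%), with a median of 0.47. IMD2, an IMP dehydrogenase of guanine synthesis, had 318 CPM in YNB, against 10.1 and 3.43 CPM in [PSI+] YPD and 160.5 and 164 CPM in [psi-] YPD. IMD3, a near copy, had 1044 CPM in YNB, against 251 and 205 CPM in [PSI+] YPD (log2 2.19). AAH1, adenine deaminase, had 49.7 CPM in YNB, against 230.3 and 183 CPM in [PSI+] YPD (log2 -2.03). The IMD genes lay above and AAH1 below both [PSI+] YPD libraries. The YNB medium lacked uracil. Of 15 pyrimidine genes 3 were higher and 3 were lower, near the shares of all genes, with a median of -0.45. FUR4, the uracil permease, had 34.2 CPM in YNB, against 9.73 and 7.48 CPM in [PSI+] YPD (log2 1.88), URA2, the enzyme of the committed steps, had 935 CPM in YNB, against 791 and 926 CPM in [PSI+] YPD (log2 0.12), and URA1, dihydroorotate dehydrogenase, had 65.1 CPM in YNB, against 342 and 254 CPM in [PSI+] YPD (log2 -2.18). For URA10, an orotate phosphoribosyltransferase, no read was counted in [PSI+] YPD, and its YNB mean of 41.0 CPM was at least 77.5-fold above the level of 3 reads over both libraries; its [psi-] YPD libraries had 32.8 and 30.0 CPM.

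More vitamin genes were higher than lower in YNB, and single genes differed widely in both directions. Of 22 shared thiamine and vitamin B6 genes, 10 passed the filter. Of these, 5 were higher and 1 was lower (all genes, 22.2% and 16.3%), with a median of 1.18. Relative to all genes that median ranged between 0.23 and 1.29 under other processing settings. Of 19 biotin, pantothenate, nicotinic acid and riboflavin genes, 9 were higher and 2 were lower, with a median of 0.51. SNZ1, a subunit of the vitamin B6 synthase, had 1164 CPM in YNB, against 63.7 and 161 CPM in [PSI+] YPD and 459 and 479.8 CPM in [psi-] YPD. SNO1, its glutaminase partner, had 83.1 CPM in YNB, against 0.811 and 0.935 CPM in [PSI+] YPD and 16.2 and 19.9 CPM in [psi-] YPD. TPN1, the vitamin B6 permease, had 31.7 CPM in YNB, against 249 and 305 CPM in [PSI+] YPD (log2 -3.09). The synthase pair was thus higher in YNB and the permease lower. MCH5, the riboflavin transporter, had 5.18 CPM in YNB, against 56.8 and 46.1 CPM in [PSI+] YPD (log2 -3.09), while BNA2, the dioxygenase that starts NAD synthesis from tryptophan, had 259 CPM in YNB, against 33.7 and 29.3 CPM in [PSI+] YPD.

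Many genes of protein breakdown were higher in YNB, and 0 were lower in either list. Of 32 proteasome genes, 16 were higher and 0 lower (all genes, 22.2% and 16.3%), with a median of 1.15 over [PSI+] YPD and 0.66 over [psi-] YPD. RPN2, a scaffold subunit of the regulatory particle, had 3817 CPM in YNB, against 246 and 300.3 CPM in [PSI+] YPD (log2 3.80). PRE4, a subunit of the catalytic core, had 676 CPM in YNB, against 108 and 102 CPM in [PSI+] YPD (log2 2.68). RPN10, a ubiquitin receptor, had 1268 CPM in YNB, against 294 and 282 CPM in [PSI+] YPD (log2 2.13). RPN2 had the highest ratio of the list, and its [psi-] YPD libraries, at 294 and 315 CPM, were close to the [PSI+] ones. Of 37 autophagy and vacuolar protease genes, 20 were higher and 0 were lower, with a median of 1.46 over [PSI+] YPD and 0.87 over [psi-] YPD. Relative to all genes the median was 1.40, and 2.51 with a filter at 50 CPM. That filter averages both media, so members low in YPD, such as ATG19, passed it through their YNB level. PRB1, vacuolar protease B, had 1991 CPM in YNB, against 124 and 106 CPM in [PSI+] YPD (log2 4.10), PEP4, the protease that activates it, had 499 CPM in YNB, against 40.5 and 35.2 CPM in [PSI+] YPD (log2 3.69), and ATG19, the receptor that delivers vacuolar hydrolases, had 509 CPM in YNB, against 19.5 and 19.0 CPM in [PSI+] YPD (log2 4.66).

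**Figure D4:**
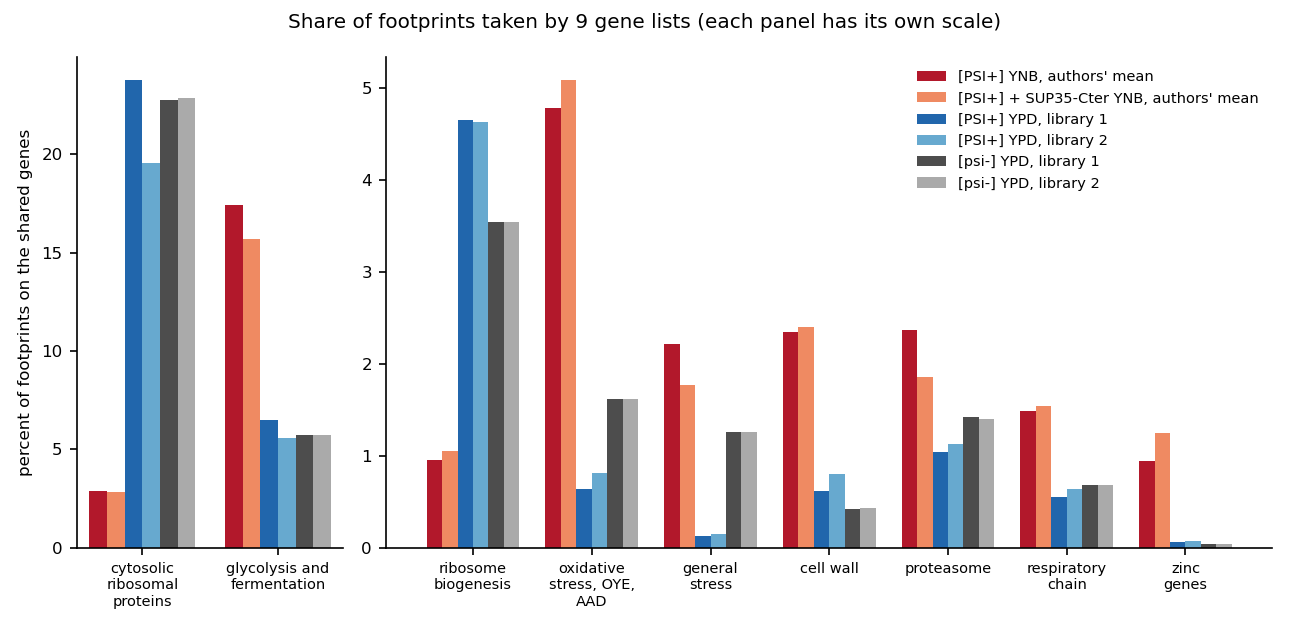
Percent of all footprints on the shared genes that fell on each of 9 gene lists, as bars from 0, in the YNB means without and with SUP35-Cter, the 2 [PSI+] YPD libraries and the 2 [psi-] YPD libraries. Cytosolic ribosomal proteins took 2.86% in YNB, against 23.8% and 19.5% in [PSI+] YPD, and the right panel has a smaller scale than the left.

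Of 36 chaperone and heat shock genes of all compartments, 13 were higher and 2, SSB1 and SSA2, were lower than in [PSI+] YPD (all genes, 22.2% and 16.3%), with a median of 0.66. Against [psi-] YPD 6 were higher and 5 lower (all genes, 23.8% and 16.3%), with a median of 0.20. SSE2, an Hsp110 nucleotide exchange factor, had 525 CPM in YNB, against 43.4 and 52.3 CPM in [PSI+] YPD and 348 and 327 CPM in [psi-] YPD. SSB1, a ribosome-bound Hsp70, had 549 CPM in YNB, against 7561 and 2122 CPM in [PSI+] YPD and 1503 and 1544 CPM in [psi-] YPD. The 2 [PSI+] YPD libraries disagreed on SSB1, and the lower one is the closer to the [psi-] libraries. The near-identical pair SSB1 and SSB2 together had 813 CPM in YNB, against 7858 and 2248 CPM in [PSI+] YPD (log2 -2.63). Of 42 cell wall genes, 18 were higher and 2 were lower than in [PSI+] YPD (all genes, 22.2% and 16.3%). CWP2, a wall mannoprotein, had 7844 CPM in YNB, against 453 and 1496 CPM in [PSI+] YPD (log2 3.01), and SED1, a wall glycoprotein of resting cells, had 1237 CPM in YNB, against 92.5 and 128 CPM in [PSI+] YPD (log2 3.47). PDI1, the disulfide isomerase of the endoplasmic reticulum, had 754 CPM in YNB, against 103 and 123 CPM in [PSI+] YPD (log2 2.73), ERG9, squalene synthase, had 879 CPM in YNB, against 150.4 and 170.1 CPM in [PSI+] YPD (log2 2.45), and OLE1, the fatty acid desaturase, had 1659.8 CPM in YNB, against 762 and 718 CPM in [PSI+] YPD (log2 1.16), a call that was lost when libraries were scaled by the median of ratios. HXT5, a hexose transporter of slow-growing cells, had no read in [PSI+] YPD and 51.1 CPM in YNB, at least 96.6-fold above the level of 3 reads over both libraries. Of 10 histone genes 4 were lower and 0 were higher (all genes, 16.3% and 22.2%), with HTA1, a histone H2A gene, at 108 CPM in YNB, against 402 and 337 CPM in [PSI+] YPD (log2 -1.76).

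SUP35 and SUP45 did not pass the 2-fold rule. SUP35 had 221 CPM in YNB and 833 CPM in YNB with SUP35-Cter, against 312 and 319 CPM in [PSI+] YPD and 628 and 615 CPM in [psi-] YPD (log2 -0.51 over [PSI+] YPD), and in the cells with SUP35-Cter footprints of the construct can fall on the same gene. SUP45, which encodes eRF1, the partner of Sup35 in termination, had 481 CPM in YNB, against 449 and 400.4 CPM in [PSI+] YPD (log2 0.18). HSP104, the disaggregase on which [PSI+] depends, had 1797 CPM in YNB, against 466 and 555 CPM in [PSI+] YPD and 1933 and 1951 CPM in [psi-] YPD (log2 1.81 over [PSI+] YPD). HSP104 was thus higher in YNB than in [PSI+] YPD and about level with [psi-] YPD. Of 22 genes for factors that propagate or cure prions, 4 were higher and 4 were lower, near the shares of all genes (22.2% and 16.3%). SSA1, an Hsp70, had 965 CPM in YNB, against 193 and 117 CPM in [PSI+] YPD (log2 2.63), and SSA2, its near copy, had 720.5 CPM in YNB, against 1895 and 1737 CPM in [PSI+] YPD (log2 -1.33); together they had 1685 CPM in YNB, against 2087 and 1854 CPM in [PSI+] YPD (log2 -0.23). Of 20 termination, mRNA surveillance and rescue genes, 4 were lower and 0 were higher (all genes, 16.3% and 22.2%), so the lower share was near that of all genes. Apart from STM1 the largest difference was that of UPF3, a factor of nonsense-mediated decay, with 79.5 CPM in YNB, against 197 and 281 CPM in [PSI+] YPD (log2 -1.58).

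Genes often used as markers in laboratory strains were read as a check of the cells. HIS3, of histidine synthesis, had no reads in any YPD library and 0.0116 CPM in YNB. URA3, of uracil synthesis, had 29.2 CPM in YNB and 172 CPM in YNB with SUP35-Cter, against 71.0 and 43.9 CPM in [PSI+] YPD and 80.1 and 80.3 CPM in [psi-] YPD (log2 -0.95 over [PSI+] YPD). ADE1, of adenine synthesis, had 505 CPM in YNB, against 677 and 1009 CPM in [PSI+] YPD (log2 -0.74). HIS3 was near 0 in both media alike, and URA3 was highest in YNB with SUP35-Cter. LEU2 had 215 CPM in YNB, against 275 and 287 CPM in [PSI+] YPD (log2 -0.38), LYS2 had 335 CPM in YNB, against 439 and 481 CPM in [PSI+] YPD (log2 -0.46), and TRP1, of tryptophan synthesis, had 75.8 CPM in YNB, against 19.9 and 20.3 CPM in [PSI+] YPD (log2 1.87). In all, 271 genes were under 1 CPM in all 6 columns. Several of them lay on chromosome XI, among them UGP1, VPS1, NAP1, YJU3 and DID2, chosen after their values were seen. The share of chromosome XI among the 271 is not given here. UGP1 encodes the UDP-glucose pyrophosphorylase that growing cells need, so a value near 0 in these tables need not mean that a gene was silent.

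**Figure D5:**
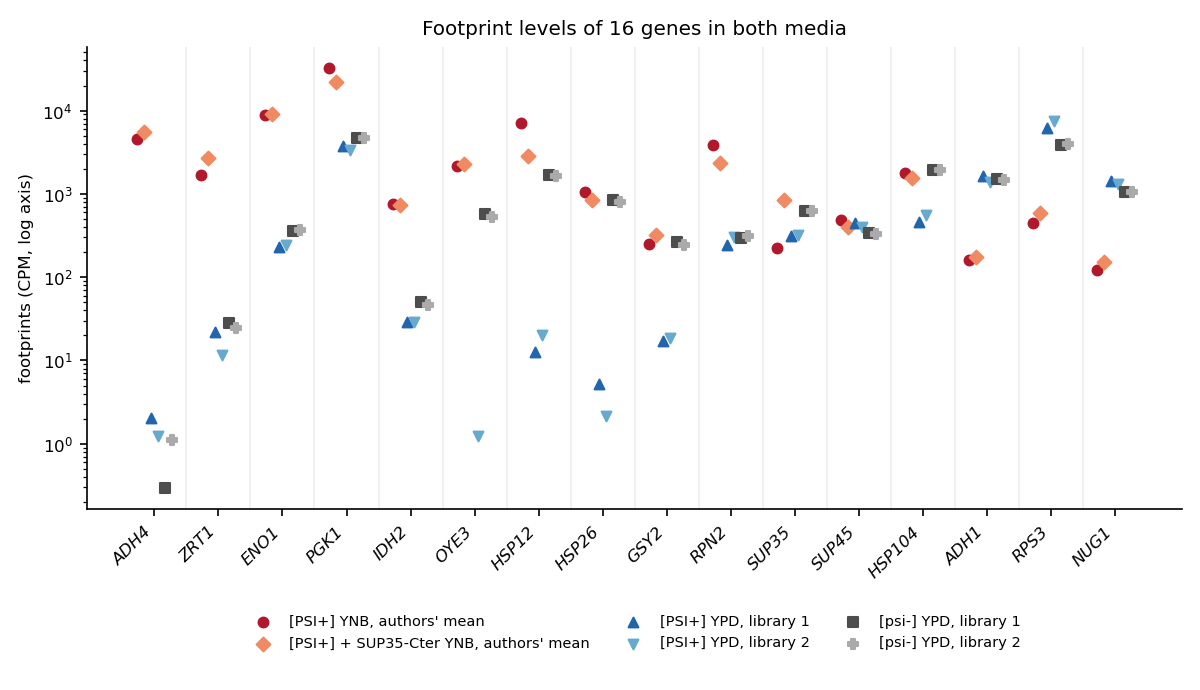
Footprint level in CPM (log axis) of 16 genes in the YNB means of [PSI+] cells without and with SUP35-Cter, the 2 [PSI+] YPD libraries and the 2 [psi-] YPD libraries; values of 0 (library 1 of [PSI+] YPD for OYE3) are not drawn. ADH4, ZRT1 and ENO1 separate YNB from all 4 YPD libraries, with ADH4 at 4561 CPM in YNB, whereas HSP26, GSY2 and HSP104 separate [PSI+] YPD from the other columns, with HSP26 at 5.27 and 2.18 CPM there.

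Per kilobase of gene (introns included, which lowers the value of spliced ribosomal protein genes), the most heavily translated set differed between media. Among the 50 genes with the highest footprint density in YNB, 12 belonged to glycolysis and fermentation and 3 to the cytosolic ribosome. In the [PSI+] YPD libraries 1 and 2, 6 and 6 of the top 50 were of glycolysis and fermentation and 34 and 27 were ribosomal. CWP2 ranked 1 in YNB, against ranks 111 and 36 in [PSI+] YPD, and HSP12 ranked 4 in YNB, against ranks 2675 and 2180. GPM1 ranked 2 in YNB, against 18 and 25 in [PSI+] YPD, and PGK1 ranked 3, against 71 and 71.

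The ratio varied with gene length and with chromosome. In the shortest of 4 length bins 28.4% were higher and 16.1% lower in YNB, with a median log2 ratio of 0.30, and in the longest bin 12.5% were higher and 15.9% lower, with a median of -0.21; the part of length in the results by list was not tested. Chromosome medians ranged between -0.10 on chromosome XII and 0.40 on chromosome I, which has 66 genes over the filter. The lowest ratio of all genes averaging 50 CPM or more was that of YGR035C, listed under its systematic name, with 12.5 CPM in YNB, against 1467 and 2817 CPM in [PSI+] YPD and 598 and 569.9 CPM in [psi-] YPD (log2 -7.31 over [PSI+] YPD). At the limit of the rule, MDY2 and ATP20 were just called higher, at log2 1.00 against the nearer YPD library, and NOT3 and AVT3 were just called lower; ATG29, GYP6, SPT21 and ALB1 fell just short.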

How the data were processed

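Ribosome footprints were sequenced by the authors in 4 YNB and 4 YPD libraries. For YPD, the authors deposited counts per gene; the submitters' processing notes name Bowtie 0.12.7, HTSeq 0.5.3p3 and the build sacCer2 alongside cutadapt 1.2.1, Bowtie2, DESeq 1.6.1 and sacCer3 for the study, without tying each to a file here. Every deposited count was at least 1, so the added 1 was subtracted per column. The 4 [PSI+] YPD columns form 2 pairs, each differing by no more than counting noise (chi-square test over genes with 20 or more reads, 1.013 and 0.997 per degree of freedom, p = 0.262 and p = 0.546, while every other pairing gave at least 19.352); each pair was summed as 1 library, and its number is only a name. The [psi-] columns were kept as 2 libraries, and the chi-square test was not run on them. The README deposited by the authors calls the YPD libraries of each strain 2 biological replicates, without saying what was grown separately. For YNB, the deposited table holds, per the file headers, a base mean (a normalized count) per condition, written with decimal commas and recorded here as another unit.

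Values were scaled to CPM over 6109 shared protein-coding names, 5677 of which matched a gene of RefSeq assembly R64. Another 479 protein-coding names of the YPD table had no YNB row and were not analysed here. Ratios used a pseudocount of 1 CPM and genes averaging 10 CPM or more; the rule was 2-fold beyond each YPD library, and a ratio on this log2 scale understates the change of low genes. Counting intervals (exact Poisson, 95%) and the floor of 3 reads cover counting error in YPD only. No test was possible. Named genes were the prion factors SUP35, SUP45 and HSP104, 6 common marker genes, the 12 highest and 12 lowest ratios among genes averaging 50 CPM or more, up to 6 called genes per list by size of ratio with up to 2 in the other direction, members of lists with 12 or fewer genes, and genes at the 2-fold limit. Genes named outside that rule were chosen after their values were seen: RPL10, TPS1, GPM1, CDC19, FBA1, PFK1, PFK2, TDH3, ENO2, ZRT2, ZRC1, IZH2, IZH4, URA2, PCK1, FBP1, the chromosome XI genes near 0, and copies summed with a named gene. The text describes part of the genes that the rule names. The members and the 49 gene lists, of which the plasmid list had 0 shared genes, and the zinc, copper and single-copy ribosomal subsets of them were chosen with earlier results of these data known. Alternatives covered pseudocounts, filters, 3 other scalings, the added counts, each YPD library left out, pooled YPD libraries, rows with no RefSeq gene and duplicated ribosomal protein genes. Python 3.11.15, numpy 2.4.6, pandas 2.3.3 and scipy 1.17.1 were used, with matplotlib 3.10.9 for the plots.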

Additional observations from a re-analysis of the deposited data

How the results depend on the processing

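Under 13 alternatives, 1 of them (leaving out duplicated ribosomal protein genes) chosen after seeing the data, the number of genes higher in YNB stayed within 1.5 times of 1068 except with a filter at 50 CPM, which left 3031 genes, 614 of them higher and 668 lower; the share of calls that were higher was then 47.9%, against 57.7% as reported. Without [PSI+] YPD library 1 or library 2, the counts ranged between 1188 and 1286 genes higher and between 888 and 1003 lower. Scaling by the median of ratios gave 948 higher and 892 lower with an all-gene median shifted by -0.12 (log2); upper-quartile scaling gave 1179 and 710. Of 48 lists, 17 had a median at least 1 log2 unit from that of all genes, and none of these 17 changed sign under any alternative run; 8 of the lists nearer 0 did. The size of a median could still move: relative to all genes, that of autophagy and vacuolar proteases ranged between 1.21 and 2.51, that of the copper and zinc list between 0.39 and 2.88, and that of its zinc subset between 1.91 and 4.66, each highest with the filter at 50 CPM. That filter averages both media, so it keeps genes that are high only in YNB. Among the 266 genes checked, none called higher or lower changed sign. Genes named outside the rule, such as TPS1 and GPM1, and the genes at the 2-fold limit were not checked. The alternative without near-identical proteins was not run, since no protein sequences were used here. No paired analysis was possible because the YNB libraries are given only as the authors' mean and no test was made. Setting genes with no [PSI+] YPD read at their lower bound moved the median of none of the 4 lists that hold one. Each list held only 1 or 2 such genes, and a median moves only when a gene crosses it, so this check could show little. Precision is limited by the YPD libraries, where a level of 10 CPM is few reads, and by the unknown spread between the YNB libraries.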
